A study of Bos taurus with 3 samples.

Results

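Amino acids enter and leave epithelial cells through solute carriers, and this report describes 10 of their genes in the epithelium of the bovine rumen: SLC1A4, SLC1A5, SLC3A2, SLC7A1, SLC7A5, SLC7A8, SLC7A11, SLC38A1, SLC38A2 and SLC6A14. They were chosen by name, as 10 of the 19533 genes of the deposited count matrix, and were followed across cell states defined by the UMIs of 4 other genes, DLK2, GJA1, IGFBP5 and TOP2A. The cells came from rumen tissue of 3 lactating adult Holstein dairy cows, 1 library per cow, all of 1 condition, with the muscle layer stripped off and the remaining tissue dissociated enzymatically for droplet-based 3′ sequencing. The study used these libraries to ask which subtypes of epithelial cell take up and metabolize the volatile fatty acids made by the rumen microbes, and the amino acid carriers stand outside that question. No treatment or genotype separated the cows, and so every comparison below is between sets of cells of the same 3 cows.

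Most of these carriers exchange 1 amino acid for another or use the sodium gradient. SLC1A4 and SLC1A5 are exchangers of small neutral amino acids, and SLC1A5 is the main glutamine exchanger of proliferating and epithelial cells. SLC3A2 is a chaperone subunit that carries no amino acid itself but brings light chains to the membrane, among them SLC7A5 and SLC7A8, which take up leucine and other large neutral amino acids, and SLC7A11, which imports cystine in exchange for glutamate. SLC7A1 imports arginine and lysine, SLC38A1 and SLC38A2 import glutamine and alanine together with sodium, and SLC6A14 takes up neutral and cationic amino acids with sodium and chloride. In the rumen the epithelium lies between a microbial fermentation and the blood, and it is a stratified squamous tissue whose basal cells divide.

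The 3 cows gave 3369, 7401 and 9958 cells with 38912809, 94856658 and 104189434 UMIs. Of the 20728 cells, 14954 (72.1%) fell into 6 states. TOP2A+ cells, with at least 2 UMIs of this topoisomerase of dividing cells, numbered 1665. Among cells without a TOP2A UMI, 791 had at least 2 UMIs of both the gap junction gene GJA1 and the IGF-binding protein gene IGFBP5 (GJA1+ IGFBP5+), 182 had GJA1 without IGFBP5 (GJA1+ IGFBP5-), 5610 had IGFBP5 without GJA1 (IGFBP5+ GJA1-), 3147 had at least 1 UMI of the Notch-pathway ligand homologue DLK2 and neither of the others (DLK2+), and 3559 had none of the 4. The other 5774 cells lay between the gates. The GJA1 and IGFBP5 gates took no account of DLK2, so 2148 of the IGFBP5+ GJA1- cells (38.3%), 149 of the GJA1+ IGFBP5+ and 12 of the GJA1+ IGFBP5- cells carried a DLK2 UMI too. The gate genes were used to make the states and are no result.

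The states were set beside other markers. The summed level of 5 proliferation genes other than TOP2A was 6.37 ± 1.43 UMIs per 10000 in TOP2A+ cells (SD, n = 3 cows) and had means of at most 0.214 in the other states. A list of 5 genes (KRT10, KRT6A, S100A8, GSTA1 and TMEM79) was at 2.56 ± 0.523 in DLK2+, 32.5 ± 16.7 in GJA1+ IGFBP5+ and 82 ± 57.2 in GJA1+ IGFBP5- cells. The study reported these genes as high in its GJA1-expressing spinous cells of the same data, so their rise with GJA1 is no separate evidence. KRT10 differed least from DLK2+ cells, at log2 1.10 ± 0.12 (SE) in GJA1+ IGFBP5+ and 0.77 ± 0.19 in GJA1+ IGFBP5- cells. GSTA1 differed most, at 6.04 ± 0.27 and 6.70 ± 0.28. A list of 6 basal genes was at 127 ± 29.2 in DLK2+, 148 ± 35.7 in GJA1+ IGFBP5+ and 139 ± 56.5 in GJA1+ IGFBP5- cells. Against DLK2+ cells 3 were called higher and 1 lower in GJA1+ IGFBP5+ cells (23.6% and 24.5% of all genes). In GJA1+ IGFBP5- cells 1 was higher and 3 lower (16.3% and 17.2%). Fibroblast genes had means over the cows of at most 0.00311, and the immune list means of 0.129 to 0.422 UMIs per 10000. The pan-leukocyte gene PTPRC was at 0 to 0.0109. Endothelial genes had means of 0.0213 to 0.0839. Of these other cell types' markers, the endothelial gene VWF was higher in GJA1+ IGFBP5+ (log2 1.29 ± 0.32, adjusted p = 0.0017) and in GJA1+ IGFBP5- cells (2.06 ± 0.49, adjusted p = 0.0018) than in DLK2+ cells, with 56, 17 and 47 UMIs in these states. Of the 6 immune genes 3 were tested, and they did not move 1 way. The T cell gene CD3E was higher in GJA1+ IGFBP5- than in DLK2+ cells (2.31 ± 0.68, adjusted p = 0.011), where the monocyte gene CD14 (-0.57 ± 0.29) and the antigen presentation gene CD74 (-0.50 ± 0.58) did not pass the test. CD14 was lower than in DLK2+ cells in GJA1+ IGFBP5+ (-1.56 ± 0.20, adjusted p = 5.5e-07) and in TOP2A+ cells (-1.14 ± 0.18, adjusted p = 9.5e-06). Their part in the members' differences below was not tested. The states also differed in depth, with a median of 8449 UMIs per DLK2+ cell and 17552 per GJA1+ IGFBP5+ cell, and in the median share of mitochondrial UMIs, 9.52% and 18.2%. The GJA1+ IGFBP5- state was the thinnest, with 55 to 69 cells per cow, and 33 of its 182 cells had a mitochondrial share under 1%. The libraries shared 35 barcode sequences, carried by 70 cells.

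Over all cells the members' UMIs were very unequal. UMIs from 3′ ends do not scale with transcript length, but how well each gene was captured and its 3′ end annotated was not tested, so the order below is one of UMIs counted and not of transcripts per cell. The sodium-coupled importer SLC38A2 had 41797 UMIs, which was 44.7% of the members' 93481, and ranked 499 among all genes; its level was 1.94, 2.05 and 1.42 UMIs per 10000 in cows 1, 2 and 3. The exchanger SLC1A4 followed at 0.945, 1.18 and 0.675, and SLC1A5 at 0.882, 0.529 and 0.734. These 3 genes held 85.4% of the members' UMIs. The 2 exchangers did not keep 1 order in the cows: SLC1A4 was above SLC1A5 in cows 1 and 2 and below it in cow 3.

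The heavy chain SLC3A2 stood at 0.456, 0.352 and 0.37 UMIs per 10000 in the 3 cows, and its light chain SLC7A5 at 0.224, 0.19 and 0.106. SLC3A2 thus had more UMIs than its partner in every cow. SLC38A1, the relative of SLC38A2, had 734 UMIs in all and a level of 0.0344, 0.0137 and 0.0451. The other members had few UMIs: 106 UMIs of the cationic amino acid transporter SLC7A1, 43 of SLC6A14, 14 of the cystine importer SLC7A11 and 3 of SLC7A8. All 10 members together made up 0.0393% of the UMIs.

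**Figure D1:**
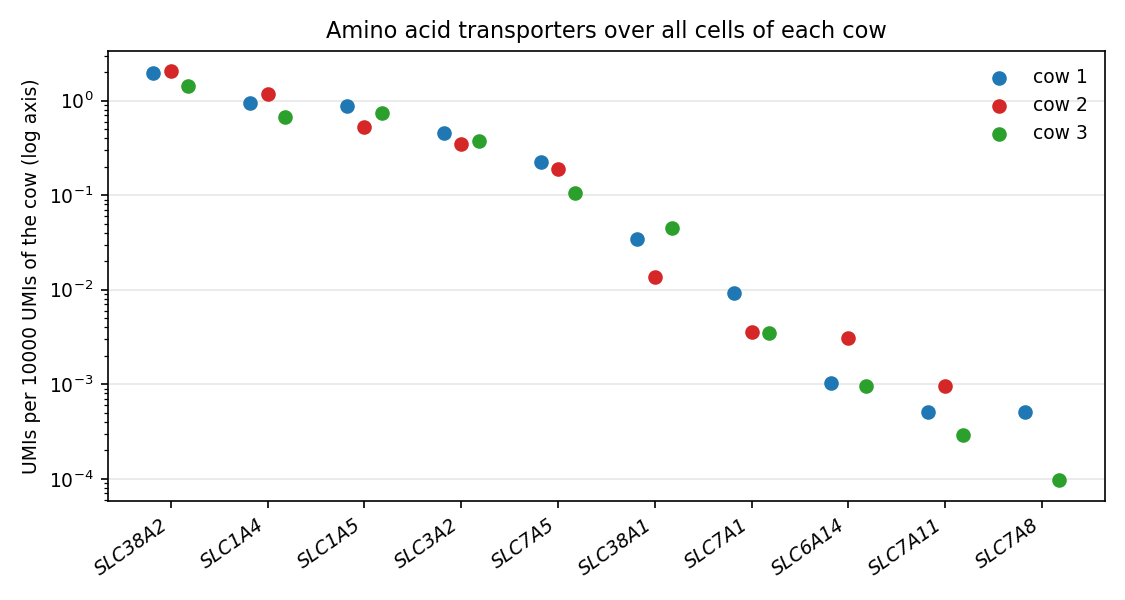
Level of the 10 amino acid transporters over all cells of each cow, in UMIs per 10000 UMIs on a log axis, with 1 point per cow; a cow with no UMI has no point. SLC38A2 lies highest, and SLC7A1, SLC6A14, SLC7A11 and SLC7A8 lie lowest, each with at most 106 UMIs in all.

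To compare the states, UMIs were summed per cow and state and tested in edgeR with the cow as a block, over 10335 genes with enough counts. Of the members, SLC1A4, SLC1A5, SLC3A2, SLC7A5, SLC38A1 and SLC38A2 passed this filter on low counts. A gene was called where its Benjamini-Hochberg adjusted p was under 0.05 and its log2 fold change was beyond 0.25 in either direction. Levels by state are in CPM (counts scaled to the library's total) after TMM scaling, the scale of the test.

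Of the 15 pairs of states, GJA1+ IGFBP5+ and DLK2+ cells had the largest share of all genes called, and carriers were called in both directions. SLC1A5 and SLC7A5 were higher and SLC38A2 and SLC38A1 lower in GJA1+ IGFBP5+ cells. Thus 4 of the 6 members tested were called, while 48.1% of all genes tested were called in this comparison (23.6% higher and 24.5% lower) and calls were thus common among all genes. The median log2 fold change was 0.08 over the 6 members and -0.05 over all genes. With cells kept in their states and thinned to 5000 UMIs, 1518 cells with fewer being left out, the same 4 members were called (an alternative chosen after seeing the data), where 38.7% of all genes were. They were also called where the gates were set anew on the thinned counts, which left 132, 70 and 84 GJA1+ IGFBP5+ cells in cows 1, 2 and 3 in place of 294, 279 and 218. The part of the mitochondrial share was not tested. Scaled by library size alone, the median of all genes fell to -0.27 and the share of calls in the higher direction went from 49.1% to 29.8%.

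SLC1A5 showed the clearest pattern of all members. Its level in GJA1+ IGFBP5+ cells was 137, 95.2 and 146 CPM in cows 1, 2 and 3, against 59.4, 51.1 and 49.2 CPM in DLK2+ cells. The 2 sets of values did not overlap and each cow was higher in the GJA1+ IGFBP5+ cells. The difference was 2.32-fold, a log2 fold change of 1.21 ± 0.10 (SE, adjusted p = 4.7e-10, edgeR), and it was also called without the cow as a block (adjusted p = 0.00028). GJA1+ IGFBP5- cells, at 94.4, 73.8 and 84.6 CPM, were 1.56-fold above DLK2+ cells (log2 0.64 ± 0.14, adjusted p = 0.00071).

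In IGFBP5+ GJA1- cells SLC1A5 was at 79.2, 59.5 and 77.3 CPM, again above the DLK2+ cells of each cow (log2 0.42 ± 0.10, adjusted p = 0.0034) and below the GJA1+ IGFBP5+ cells (0.80 ± 0.10 for the latter against the former, adjusted p = 6.9e-07). Cells with none of the 4 markers had 65.9, 58.1 and 66.8 CPM. TOP2A+ cells had 64.7, 44.1 and 54.2 CPM, not past the threshold against DLK2+ cells, with a log2 difference between -0.20 and 0.21 at 2 SE. The dividing cells did not have the most of this glutamine exchanger and were 2.31-fold below the GJA1+ IGFBP5+ cells (log2 -1.21 ± 0.10, adjusted p = 1.2e-09).

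SLC1A4 did not follow SLC1A5. Its mean lay between 81.1 and 103 CPM in 5 of the 6 states, with cow 2 highest and cow 3 lowest in every state, and it stood at 67.9, 73.8 and 54.9 CPM in GJA1+ IGFBP5- cells. Against the DLK2+ cells of the same cows, at 89.2, 135 and 73.3 CPM, the GJA1+ IGFBP5- cells were 1.51-fold lower (log2 -0.59 ± 0.13, adjusted p = 0.0012). That call was lost without cow 2 (log2 -0.42, adjusted p = 0.078) and without the block (adjusted p = 0.25). Between GJA1+ IGFBP5+ and DLK2+ cells the difference of SLC1A4 was -0.07 ± 0.10 and was not called (adjusted p = 0.58), although scaling by library size alone gave -0.29 (adjusted p = 0.011).

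**Figure D2:**
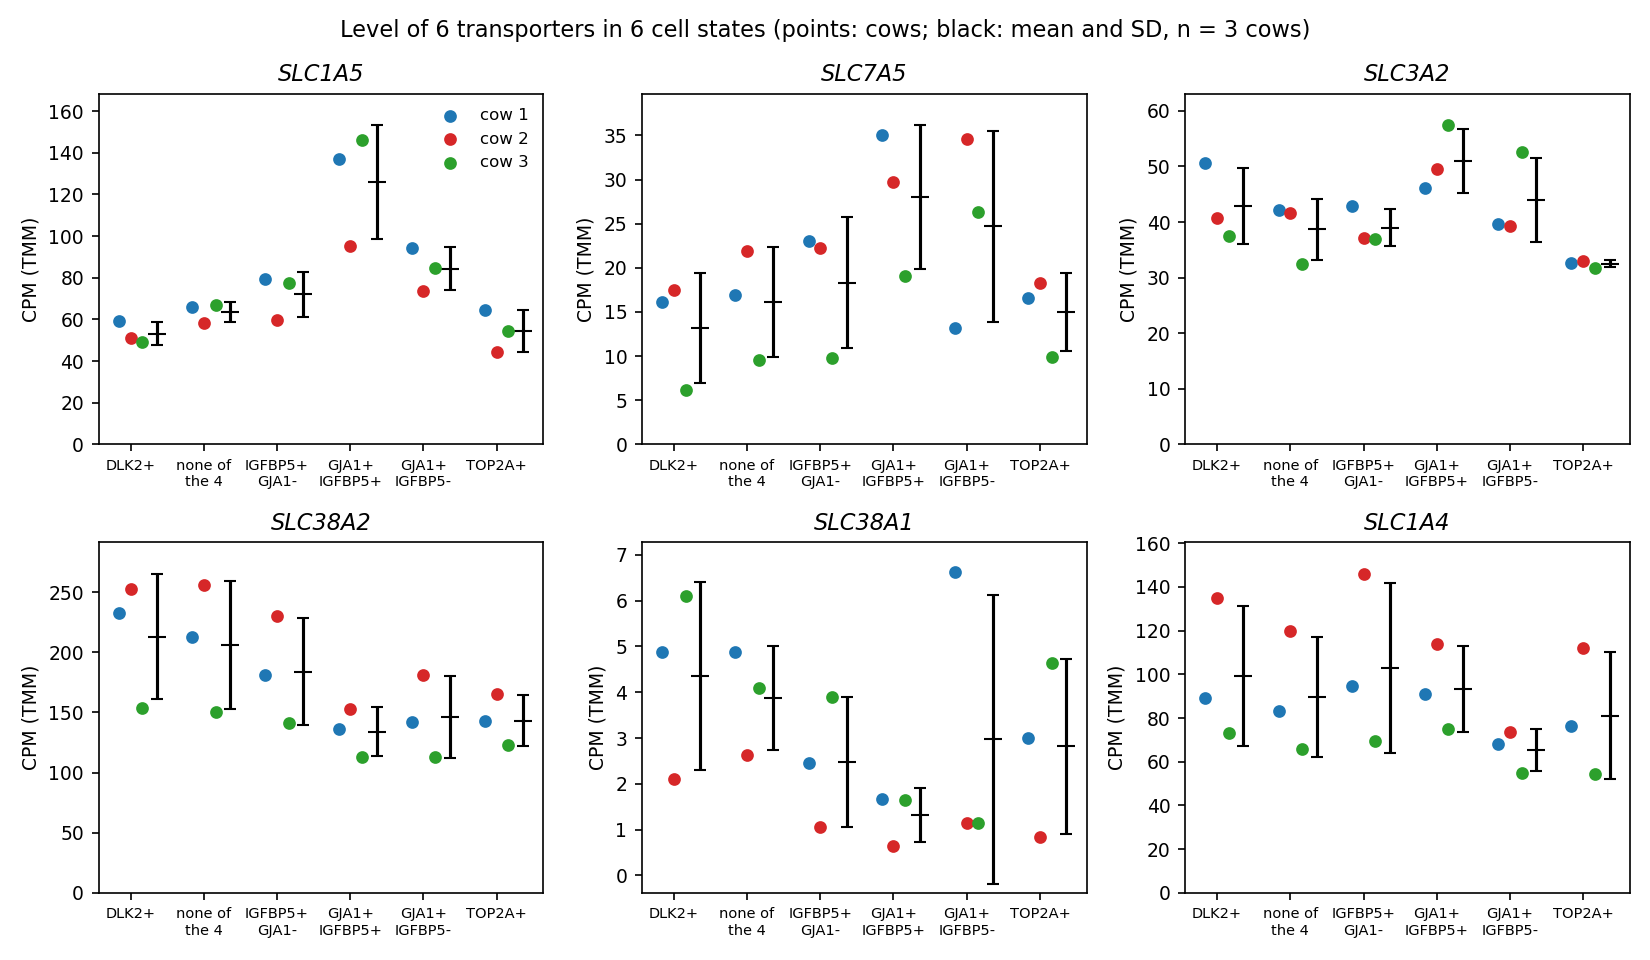
Level of the 6 tested transporters in each of 6 cell states, in CPM after TMM scaling, with 1 coloured point per cow and the mean ± SD of 3 cows in black. SLC1A5 and SLC7A5 have their highest means in GJA1+ IGFBP5+ cells, at 126 and 28 CPM, and SLC38A2 has its highest mean in DLK2+ cells, at 213 CPM.

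The leucine transporter SLC7A5 was at 35.1, 29.7 and 19.1 CPM in GJA1+ IGFBP5+ cells and at 16.1, 17.5 and 6.1 CPM in DLK2+ cells. Cow 3 was lowest in both states, and every cow was higher in the former. The difference was 2.11-fold (log2 1.08 ± 0.17, adjusted p = 9.5e-06), and without the block its adjusted p was 0.094. In GJA1+ IGFBP5- cells the 3 cows were at 13.2, 34.6 and 26.3 CPM, and cow 1 was below its own DLK2+ cells. These values rest on only 8, 30 and 23 UMIs, and 20 of the 58 cells of cow 1 had a mitochondrial share under 1%. The fitted difference of 1.00 ± 0.28 (adjusted p = 0.0075) was lost without cow 2 (1.03, adjusted p = 0.079), without cow 3 (0.59, adjusted p = 0.14) and without the block (adjusted p = 0.21).

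Its heavy chain SLC3A2 varied less. GJA1+ IGFBP5+ cells had 46.1, 49.5 and 57.4 CPM and DLK2+ cells 50.6, 40.7 and 37.5 CPM, so that cow 1 went the other way from cows 2 and 3. The difference of 0.24 ± 0.12 was not called (adjusted p = 0.095), but without cow 1 it was 0.41 and was called (adjusted p = 0.02). Against IGFBP5+ GJA1- cells, at 42.9, 37.2 and 36.9 CPM, SLC3A2 was higher in the GJA1+ IGFBP5+ cells of every cow (log2 0.37 ± 0.11, adjusted p = 0.013). In that comparison SLC1A5, SLC3A2 and SLC7A5 were called higher and SLC38A2 lower, 4 of 6 members where 32.9% of all genes tested were called.

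SLC38A2 ran opposite to SLC1A5 between these states. It stood at 233, 253 and 154 CPM in DLK2+ cells and at 136, 153 and 113 CPM in GJA1+ IGFBP5+ cells. The lowest DLK2+ value lay just above the highest value of the other state, and each cow was lower in GJA1+ IGFBP5+ cells. The difference was 1.57-fold (log2 -0.65 ± 0.09, adjusted p = 3e-06), with an adjusted p of 0.08 without the block. GJA1+ IGFBP5- cells, at 142, 181 and 113 CPM, were also lower than DLK2+ cells (-0.54 ± 0.11, adjusted p = 0.00037, and 0.16 without the block).

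TOP2A+ cells had 143, 165 and 123 CPM of SLC38A2, below the DLK2+ cells of every cow by 0.55 ± 0.09 on the log2 scale (fitted value -0.55, adjusted p = 2.9e-05). IGFBP5+ GJA1- cells were intermediate at 181, 230 and 141 CPM and did not pass the test against DLK2+ cells (-0.21 ± 0.09, adjusted p = 0.12). Cells with none of the 4 markers, at 213, 256 and 150 CPM, differed from DLK2+ cells by 0.05 ± 0.09, not past the threshold.

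Beside this, a list of 22 immediate-early and dissociation-stress genes was read. Like SLC38A2, its sum was lower in the GJA1+ IGFBP5+ and TOP2A+ cells than in the DLK2+ cells of every cow, but not all of its genes were. Their summed level was 160, 155 and 50.4 UMIs per 10000 in the DLK2+ cells of cows 1, 2 and 3 and 66.3, 85.8 and 39.8 in the GJA1+ IGFBP5+ cells. Of the 21 tested, 14 were called lower and 2 higher in GJA1+ IGFBP5+ against DLK2+ cells, with a median of -0.74, where 24.5% of all genes were lower and 23.6% higher, with a median of -0.05. In TOP2A+ against DLK2+ cells 16 were lower and 2 higher, with a median of -1.31, where 23.2% of all genes were lower and 23.4% higher, with a median of -0.01. The transcription factor genes EGR3, JUNB and FOS and the mRNA-decay gene ZFP36 had the largest called differences in the former comparison, at -2.04, -1.90, -1.62 and -1.75. The 2 called higher there were the heat-shock genes HSPA8 (0.90 ± 0.14) and HSPA1A (0.52 ± 0.20). In TOP2A+ cells they were the heat-shock genes HSPA8 (1.01 ± 0.14) and HSP90AA1 (0.51 ± 0.10). Cow 3 had the lowest sum of this list and the lowest SLC38A2 in every state. The part of this list's genes in the SLC38A2 difference was not tested.

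SLC38A1 was sparse. It had 4.87, 2.1 and 6.1 CPM in DLK2+ cells and 1.67, 0.632 and 1.65 CPM in GJA1+ IGFBP5+ cells, so the highest value of the latter lay below the lowest of the former. The difference was 3.2-fold (log2 -1.68 ± 0.38, adjusted p = 0.00078), and without the block the adjusted p was 0.091. It rests on 9, 3 and 5 UMIs in the GJA1+ IGFBP5+ cells against 30, 33 and 42 in the DLK2+ cells. Thinned to 5000 UMIs within their states, the GJA1+ IGFBP5+ cells had 4, 0 and 1 UMIs and the DLK2+ cells 15, 17 and 29 (-1.91, adjusted p = 0.0069). With the gates set anew on thinned counts the smaller set of GJA1+ IGFBP5+ cells had 0 UMIs in all 3 cows, and the fitted value of -7.17 (adjusted p = 0.009) gives no size. GJA1+ IGFBP5- cells had 4, 1 and 1 UMIs in cows 1, 2 and 3, too few to compare (-0.73 ± 0.61, adjusted p = 0.4).

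**Figure D3:**
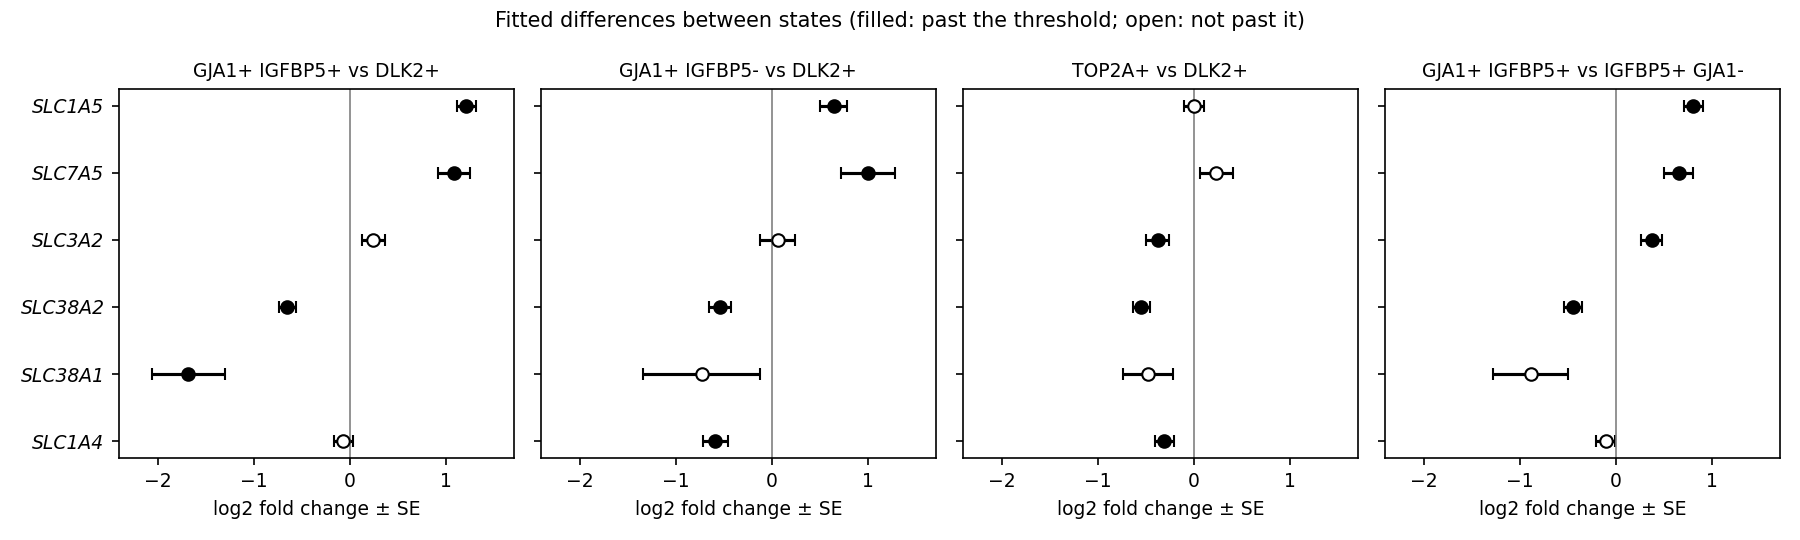
Fitted log2 fold change ± SE of the 6 tested transporters in 4 comparisons of states, with filled points past the threshold and open points not past it. In GJA1+ IGFBP5+ against DLK2+ cells SLC1A5 and SLC7A5 lie to the right, at 1.21 and 1.08, and SLC38A1 and SLC38A2 to the left, at -1.68 and -0.65.

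GJA1+ IGFBP5- cells were compared with DLK2+ cells in the same way, and 4 of 6 members were called, against 33.5% of all genes tested: SLC1A5 and SLC7A5 higher (16.3% of all genes) and SLC1A4 and SLC38A2 lower (17.2%). This comparison shared its DLK2+ sums with the one above. Between the 2 GJA1+ states, of which GJA1+ IGFBP5- held 182 cells, 2.92% of genes were called. There SLC1A4 (0.52 ± 0.14, adjusted p = 0.037) and SLC1A5 (0.57 ± 0.13, adjusted p = 0.016) were higher in the GJA1+ IGFBP5+ cells, which makes 2 of 6 members, and each cow went that way for both genes. Neither call was steady: SLC1A4 lost its call without any 1 of the cows (adjusted p = 0.068 to 0.29), and SLC1A5 without cow 1 or cow 3 (0.14 in both). Leaving out the cells with a mitochondrial share under 1% gave adjusted p of 0.17 for SLC1A4 and 0.052 for SLC1A5.

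In dividing cells no member was called higher than in DLK2+ cells. In TOP2A+ against DLK2+ cells 3 of 6 members were called lower, SLC1A4 (-0.31 ± 0.10, adjusted p = 0.0094), SLC3A2 (-0.38 ± 0.12, adjusted p = 0.0092) and SLC38A2, while 46.6% of all genes were called, 23.4% higher and 23.2% lower. SLC3A2 was at 32.6, 33 and 31.8 CPM in TOP2A+ cells, below every DLK2+ value. Its call was lost without cow 1 (-0.28, adjusted p = 0.095), that of SLC1A4 without cow 3 (-0.21, adjusted p = 0.14), and all 3 without the block (adjusted p = 0.12 for SLC3A2, 0.61 for SLC1A4 and 0.15 for SLC38A2). In this comparison SLC7A5 (0.23 ± 0.17) and SLC38A1 (-0.48 ± 0.26) did not pass the test.

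Against cells with none of the 4 markers, 1 of 6 members was called in TOP2A+ cells, where 36.4% of all genes were. It was SLC38A2, lower by 1.41-fold (-0.49 ± 0.09, adjusted p = 0.00015, and 0.27 without the block). SLC1A5, at -0.25 ± 0.10 (adjusted p = 0.059), lay at the edge of the threshold. Of the TOP2A+ cells, 120 had at least 2 UMIs of GJA1, 308 at least 1 of DLK2 and 544 at least 2 of IGFBP5, so that this state held cells that carried the other gate genes.

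Few genes were called between the cells with none of the 4 markers and the IGFBP5+ GJA1- or DLK2+ cells. In IGFBP5+ GJA1- cells against cells with none of the 4 markers, 0 of 6 members were called by edgeR and 0 by DESeq2, 1.04% of all genes were called, and 1 member, SLC38A1 (-0.57 ± 0.23), had an unadjusted p under 0.05. In DLK2+ cells against the same cells 0 of 6 members were called by either tool, 2.25% of all genes were, and 1 member, SLC1A5 (-0.25 ± 0.10), had an unadjusted p under 0.05. IGFBP5+ GJA1- cells did differ from DLK2+ cells, with 3 of 6 members called by edgeR, and 1 by DESeq2, against 17.2% of all genes by edgeR: SLC1A5, as above, and SLC7A5 (0.43 ± 0.15, adjusted p = 0.046) higher, and SLC38A1 lower (-0.78 ± 0.23, adjusted p = 0.022). Without the IGFBP5+ GJA1- cells that carried DLK2, left out after seeing the data, the same 3 members were called, at 0.46, 0.50 and -0.80, and 22.1% of all genes.

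Over all 15 pairs of states, 40 of 90 tests of a member were called. The share of all genes called ranged from 1.04% to 48.1% between these pairs. The pairs not described so far gave 5 of 6 members called in GJA1+ IGFBP5+ cells against none of the 4 (39.2% of all genes), 3 in GJA1+ IGFBP5- against none of the 4 (26.1%), 2 in GJA1+ IGFBP5- against IGFBP5+ GJA1- (22.7%) and 3 in TOP2A+ against IGFBP5+ GJA1- cells (35.8%). TOP2A+ cells differed in 4 members from GJA1+ IGFBP5+ cells (37.4% of all genes), SLC1A5, SLC3A2 and SLC7A5 being lower and SLC38A1 higher, and in 2 from GJA1+ IGFBP5- cells (23.6%). SLC1A5 was called in 10 pairs, SLC38A2 in 9, SLC7A5 in 7, SLC1A4 in 6, and SLC3A2 and SLC38A1 in 4 each. The pairs reuse the same 6 states, so these calls are not separate results. The number of pairs in which other genes were called was not computed, so these counts have no background beside them. Ordered by mean, SLC1A5 went from GJA1+ IGFBP5+ (126 ± 27.2 CPM, SD, n = 3 cows) through GJA1+ IGFBP5- (84.3 ± 10.3), IGFBP5+ GJA1- (72 ± 10.8), none of the 4 (63.6 ± 4.8) and TOP2A+ (54.4 ± 10.3) to DLK2+ (53.2 ± 5.42). Only the step from the first to the second of these passed the test between neighbours. SLC38A2 went from DLK2+ (213 ± 52.2) through none of the 4 (206 ± 53.4), IGFBP5+ GJA1- (184 ± 44.5), GJA1+ IGFBP5- (146 ± 34.1) and TOP2A+ (143 ± 21.1) to GJA1+ IGFBP5+ (134 ± 20.5), and the only neighbours that differed were IGFBP5+ GJA1- and GJA1+ IGFBP5- (0.33 ± 0.11, adjusted p = 0.027).

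The order of SLC7A5 was GJA1+ IGFBP5+ (28 ± 8.14), GJA1+ IGFBP5- (24.7 ± 10.8), IGFBP5+ GJA1- (18.3 ± 7.44), none of the 4 (16.1 ± 6.23), TOP2A+ (15 ± 4.46) and DLK2+ (13.2 ± 6.2). SLC3A2 ran from 51 ± 5.79 in GJA1+ IGFBP5+ to 32.5 ± 0.64 in TOP2A+ cells, SLC38A1 from 4.36 ± 2.05 in DLK2+ to 1.32 ± 0.594 in GJA1+ IGFBP5+ cells, and SLC1A4 from 103 ± 38.9 in IGFBP5+ GJA1- to 65.5 ± 9.69 in GJA1+ IGFBP5- cells. For these 4 genes no neighbours in the order passed the test.

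Ratios of members within a cow and state do not depend on the scaling, and they were computed after the levels had been seen, as a description. The number of SLC1A5 UMIs per SLC1A4 UMI was 0.665, 0.378 and 0.671 in the DLK2+ cells of cows 1, 2 and 3, and 1.51, 0.834 and 1.95 in their GJA1+ IGFBP5+ cells. The 2 sets did not overlap, and the balance tipped from SLC1A4 to SLC1A5 in cows 1 and 3. For each SLC1A5 UMI there were 3.92, 4.96 and 3.13 UMIs of SLC38A2 in DLK2+ cells and 0.993, 1.61 and 0.772 in GJA1+ IGFBP5+ cells. The light chain SLC7A5 per UMI of its heavy chain SLC3A2 was 0.317, 0.429 and 0.163 in the former and 0.762, 0.6 and 0.333 in the latter, higher in each cow but overlapping between cows.

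The summed level of all 10 members was 5.54, 4.66 and 3.37 UMIs per 10000 in DLK2+ cells, 4.28, 3.75 and 3.77 in GJA1+ IGFBP5+ cells and 3.89, 3.62 and 3.12 in TOP2A+ cells. The sums overlapped between the states, and cow 3 was the exception that had more in GJA1+ IGFBP5+ than in DLK2+ cells.

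**Figure D4:**
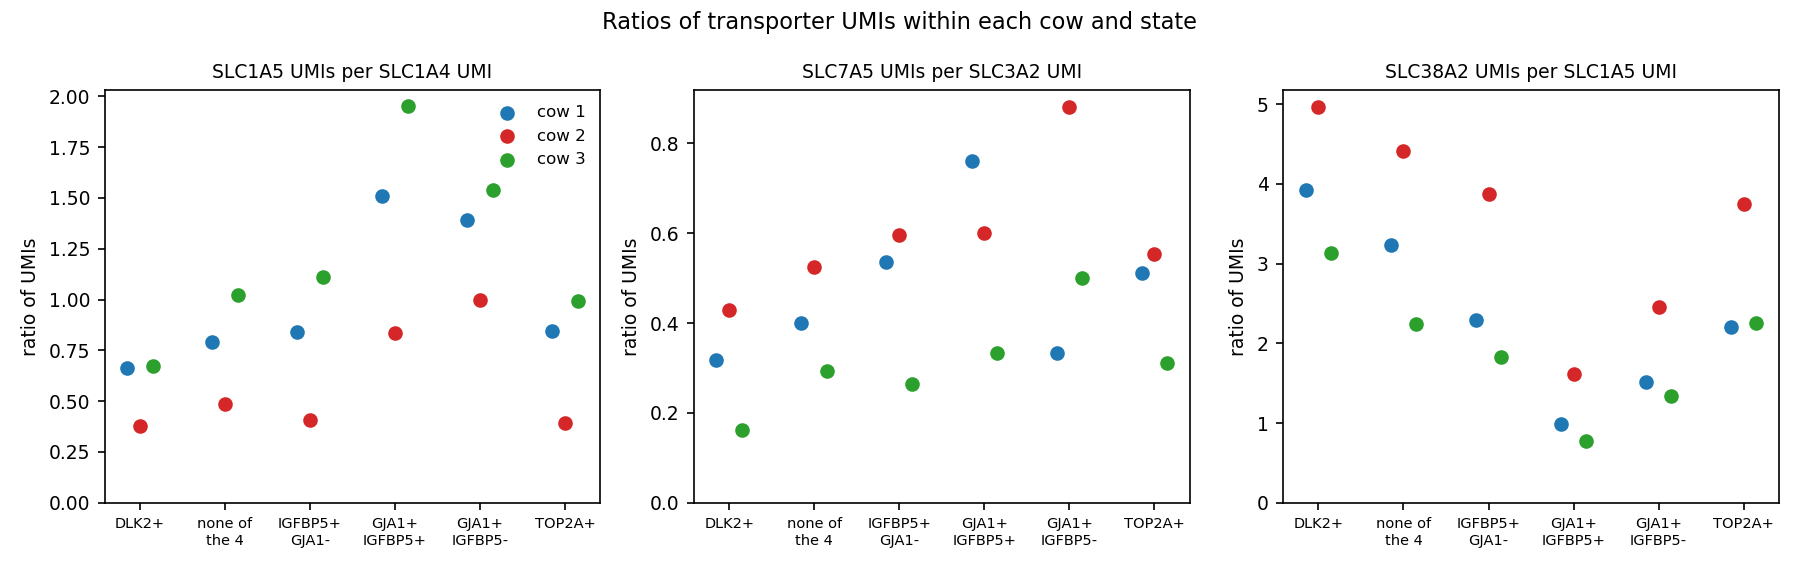
Ratios of transporter UMIs within each cow and state, with 1 point per cow and axes from 0. SLC1A5 per SLC1A4 lies between 0.378 and 0.671 in DLK2+ cells and between 0.834 and 1.95 in GJA1+ IGFBP5+ cells, and SLC38A2 per SLC1A5 lies between 3.13 and 4.96 in the former and between 0.772 and 1.61 in the latter.

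The 4 members that failed the filter could not be compared at this depth. SLC7A1 had 10 UMIs in DLK2+ cells, 14 in cells with none of the 4 markers, 33 in IGFBP5+ GJA1-, 7 in GJA1+ IGFBP5+, 1 in GJA1+ IGFBP5- and 15 in TOP2A+ cells. SLC6A14 had 11, 6, 8, 2, 2 and 5 UMIs in the same order, of which 8 of the 11 in DLK2+ cells came from cow 2. SLC7A11 was found as 1 UMI in DLK2+, 5 in IGFBP5+ GJA1- and 2 in TOP2A+ cells, and SLC7A8 as 1 UMI each in GJA1+ IGFBP5+ cells and cells with none of the 4 markers. Where a state had no UMI, 3 counts of its total set the limit: SLC7A11 at 0 in GJA1+ IGFBP5+ cells allows up to 0.00206 UMIs per 10000 over the 3 cows, and SLC7A8 at 0 in DLK2+ cells up to 0.00105. These limits cover counting error only. Fitted without the filter on low counts, none of these 4 genes was called in any of the 7 comparisons led above.

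Of 39 other amino acid and peptide transporters, 33 were in the matrix and 15 passed the filter. In GJA1+ IGFBP5+ against DLK2+ cells 3 were called higher and 5 lower, with a median of -0.58, where 23.6% of all genes were higher and 24.5% lower, with a median of -0.05. Among the largest differences was that of SLC7A7, another light chain of SLC3A2 that exports cationic amino acids. It was lower (log2 -2.72 ± 0.45, adjusted p = 1.9e-05), from 0.0614 ± 0.0544 UMIs per 10000 in DLK2+ cells to 0.00633 ± 0.00527. These levels rest on 15, 51 and 83 UMIs in the DLK2+ cells of cows 1, 2 and 3. The GJA1+ IGFBP5+ cells had 7, 2 and 1 UMIs. SLC43A1, a facilitator of large neutral amino acids, was lower (-1.40 ± 0.16, adjusted p = 6.6e-08), as was the neutral amino acid transporter SLC6A15 (-1.32 ± 0.44, adjusted p = 0.015). SLC6A15 had 19, 34 and 14 UMIs in the DLK2+ cells and 4, 5 and 3 in the GJA1+ IGFBP5+ cells. Of those higher, SLC6A9 had the smallest adjusted p (1.04 ± 0.11, adjusted p = 4.9e-08), at 57.8, 56 and 49.5 CPM against 27.7, 28.4 and 23.1 CPM in DLK2+ cells. The peptide transporter SLC15A1 was higher (1.69 ± 0.45, adjusted p = 0.0033), at 0.0709, 0.0463 and 0.0604 UMIs per 10000 in the GJA1+ IGFBP5+ cells and 0.0218, 0.00356 and 0.0569 in the DLK2+ cells of cows 1, 2 and 3, so that cow 3 hardly differed.

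In TOP2A+ against DLK2+ cells none of the 15 was called higher and 6 were called lower, with a median of -0.35, where 23.4% of all genes were higher and 23.2% lower, with a median of -0.01. SLC43A1 (-1.34 ± 0.14), the lysosomal cystine exporter gene CTNS (-1.08 ± 0.24), SLC43A2 (-1.0 ± 0.25) and the glutamate transporter SLC1A3 (-0.88 ± 0.34) had the largest differences. In GJA1+ IGFBP5- against DLK2+ cells 2 were higher and 2 lower (33.5% of all genes called), and 0 were called between the 2 GJA1+ states (2.92%). In TOP2A+ cells against cells with none of the 4 markers 0 were higher and 5 lower (36.4%).

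**Figure D5:**
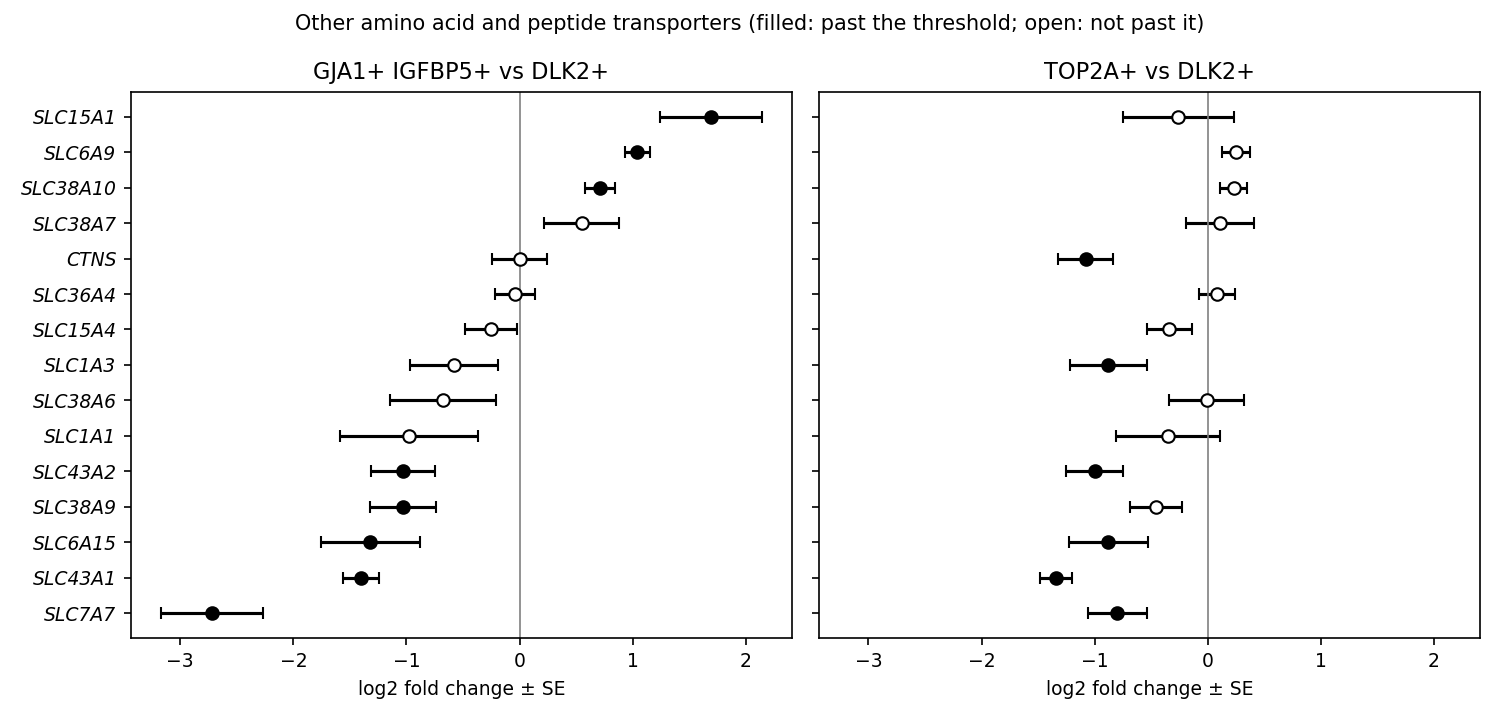
Fitted log2 fold change ± SE of 15 other amino acid and peptide transporters in 2 comparisons on a shared axis, with filled points past the threshold and open points not past it. In GJA1+ IGFBP5+ against DLK2+ cells 3 are called higher and 5 lower, and in TOP2A+ against DLK2+ cells 6 are called lower.

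Genes that sense or use the transported amino acids were also followed between GJA1+ IGFBP5+ and DLK2+ cells, where 48.1% of all genes were called and the median of all genes was -0.05. Of 25 tested genes of amino acid sensing and mTORC1, the kinase complex that responds to leucine and arginine, 5 were higher and 7 lower, a share close to that of all genes, with a median of -0.01. The sestrin genes SESN3 (-1.45 ± 0.30) and SESN2 (-1.03 ± 0.29) and the GTPase gene RRAGD (-1.26 ± 0.37) were lower, and LAMTOR2, of the lysosomal scaffold, was higher (0.90 ± 0.09). Of 17 genes of glutamine, branched-chain amino acid and arginine metabolism 8 were higher and 4 lower, with a median of 0.27. The branched-chain aminotransferase BCAT2 (-1.93 ± 0.42) and OAT (-1.25 ± 0.20) were lower, while the arginine synthesis gene ASS1 was higher (1.21 ± 0.15).

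Of 18 genes of the amino acid starvation response around ATF4, 6 were higher and 5 lower in the same comparison, with a median of -0.18, beside 23.6% and 24.5% of all genes. CEBPB (-1.41 ± 0.51), the serine synthesis gene PHGDH (-0.85 ± 0.10), DDIT4 (-0.71 ± 0.18), DDIT3 (-0.67 ± 0.12) and ATF4 itself (-0.40 ± 0.10) were lower. GPT2 (1.10 ± 0.41), PSPH (0.77 ± 0.18), EPRS1, VLDLR, WARS1 and NARS1 were higher. The summed level of the list was 9.42, 8.88 and 9.95 UMIs per 10000 in the DLK2+ cells of cows 1, 2 and 3. In their GJA1+ IGFBP5+ cells it was 6.32, 6.12 and 7.49. Of 11 genes of glutathione, thioredoxin and related antioxidant defence, 8 were higher and 1 lower, with a median of 0.85, beside the same shares of all genes and their median of -0.05. Those higher included TXNRD1 (1.86 ± 0.14), TXN (1.29 ± 0.10), GCLM (1.19 ± 0.13) and NQO1 (0.88 ± 0.18). The 1 lower was the transcription factor gene NFE2L2 (-0.66 ± 0.11), and the glutathione synthesis gene GCLC was not called (-0.02 ± 0.18).

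For each member with at least 1000 UMIs the genes of most similar pattern were found by Pearson's r of log2 CPM over the 18 sums after the mean of each cow was taken out; the sums share cows and libraries, and the values are a description. SLC1A5 was most like WNT7B (0.939), CMBL (0.939) and NT5E (0.938). SLC7A5 was most like SLC38A10 (0.973), IL17RA (0.93) and MTX1 (0.925), and SLC3A2 like CLDN19 (0.861), SPRYD7 (0.86) and BAIAP2 (0.859). SLC38A2 was most like CDC42EP3 (0.977), ZFP36 (0.975) and ZFP36L1 (0.974), of which ZFP36 is in the immediate-early list. SLC1A4 was most like METTL7A (0.953), CCNQ (0.939) and RP9 (0.925). Among these members themselves, r was 0.743 for SLC1A5 with SLC7A5, 0.638 for SLC3A2 with SLC7A5, -0.561 for SLC1A5 with SLC38A2 and -0.0289 for SLC1A5 with SLC1A4.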

How the data were processed

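Per the labels and the study's methods, libraries were made with a droplet 3′ kit and counted with Cell Ranger 3.1.0 on the bovine genome, and the authors removed low-quality cells, predicted doublets and non-epithelial cells. In the files each cell had 501 to 3998 genes, at most 39655 UMIs and at most 36.1% mitochondrial UMIs. The authors deposited UMI counts and natural log values, which equalled ln(1 + 10000 × count / total) within 5e-07; the counts were used. Cows were read from barcode suffixes, and doublets were not called again.

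Cells were gated in the order given in the report. UMIs were summed per cow and state (18 sums, at least 55 cells each), filtered with filterByExpr and tested with the quasi-likelihood test of edgeR 4.0.16 (R 4.3.3), with TMM and the cow as a block. DESeq2 1.42.0 was an alternative. The same 3 cows gave every state, which makes the cow a pairing. Deviations of sums from the state means had a mean correlation of 0.519 to 0.544 within a cow and of -0.304 between cows. The value between cows is negative by construction, because deviations from a mean of 3 cows cancel out. The lowest correlations within cows 1, 2 and 3 were 0.27, 0.237 and 0.282. With 3 cows an exact sign-flip test cannot go below 0.25 (two-sided) and was not used. On data simulated for the GJA1+ IGFBP5+ against DLK2+ comparison (10128 genes, 200 changed), 83% of log2 changes of 1 and 100% of changes of 2 were called, and 4.19% of calls were false. The changed genes were drawn from those with more counts, no other gene differed between states, and all genes had the same dispersion. In the data 48.1% of genes were called, so these rates do not carry over to the calls above or to sparse genes.

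The members, lists and gates were chosen with earlier results of these data known. All 10 members were named, as were up to 4 called genes per list by largest fold, in the comparisons described, apart from 1 gene that is not reported here. Other genes of a list and the ratios were added after values were seen. Antisense or overlapping genes were not examined.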

Additional observations from a re-analysis of the deposited data

How the results depend on the processing

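No called member turned its direction under any of these alternatives. Of the 42 fitted values (6 members in 7 comparisons), 38 of the 39 to which DESeq2 gave an adjusted p stayed on their side of the threshold with it, 40 of 42 with DESeq2 size factors, 39 with library size alone, 42 with no filter on low counts and 30 without the block on the cow. Without that replicate block, which ignores that each cow gave every state, members called went from 4 to 1 in GJA1+ IGFBP5+ against DLK2+ cells, from 4 to 1 in GJA1+ IGFBP5- against DLK2+, from 2 to 0 between the GJA1+ states, from 3 to 0 in TOP2A+ against DLK2+, from 1 to 0 in TOP2A+ against none of the 4, and from 40 to 6 over all pairs; all genes called went from 4972 to 1980, 3464 to 1857, 302 to 39, 4811 to 1563 and 3767 to 773 in these comparisons, from 107 to 2 in IGFBP5+ GJA1- against none of the 4, and from 233 to 4 in DLK2+ against none of the 4. With a minimum log2 fold of 1 the members called were 1 in GJA1+ IGFBP5- against DLK2+, 0 between the GJA1+ states, 0 in both TOP2A+ comparisons and 7 over all pairs. Of all genes, 18% and 1.55% were called with it in the former comparisons. In TOP2A+ against DLK2+ and none of the 4, 14.4% and 9.1% were. Between the GJA1+ states the count of 2 became 1 with DESeq2, with its size factors or with gates at 1 UMI, and 0 with library size alone, thinned cells gated anew or cells under 1% mitochondrial UMIs left out. Of all genes 3.1%, 2.53% and 2.32% were called in the former settings, and 2.8%, 0.97% and 1.42% in the latter. In TOP2A+ against none of the 4 the count of 1 became 2 with DESeq2 size factors, a DLK2 gate at 2 UMIs, thinned cells gated anew or low-mitochondrial cells left out, SLC1A5 being the gene gained. In these settings 36.4%, 37.2%, 26.2% and 37.2% of all genes were called. Leaving out 1 cow at a time gave 4 to 5 members in GJA1+ IGFBP5+ against DLK2+, 2 to 4 in GJA1+ IGFBP5- against DLK2+, 0 to 1 between the GJA1+ states, 2 to 3 and 1 to 2 in TOP2A+ against DLK2+ and none of the 4, 0 to 1 in IGFBP5+ GJA1- against none of the 4 (SLC38A1, without cow 3), 0 in DLK2+ against none of the 4, and 28 to 36 over all pairs. In the same order, the shares of all genes called were 36.2% to 44%, 23.9% to 26.1%, 1.28% to 1.56%, 34.2% to 40.7%, 23.6% to 31%, 0.136% to 2.37% and 0.368% to 1.77%. For the counts over all pairs in these alternatives no share of all genes is given. Chosen after seeing the data, thinning within the states kept 40 of the 42 values on their side of the threshold and gave 1 member between the GJA1+ states (SLC1A4), with all genes called going from 302 to 94 there (84 gated anew), from 4972 to 3293 in GJA1+ IGFBP5+ against DLK2+ (2249 gated anew) and from 3464 to 1806 in GJA1+ IGFBP5- against DLK2+. Leaving out IGFBP5+ GJA1- cells with DLK2, also chosen then, changed no member's call and took all genes called from 107 to 359 in that state against none of the 4. The cause of these shifts was not tested. Some of these fits also had fewer cows or cells, and the part of that was not tested either.

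The share of calls in the higher direction moved with the scaling: with library size alone from 53.3% to 25.3% between the GJA1+ states (39.1% with DESeq2), from 50.5% to 63.6% in TOP2A+ against none of the 4 and from 64.5% to 48.1% in IGFBP5+ GJA1- against none of the 4 (84.2% with DESeq2), and with DESeq2 from 26.2% to 15.6% in DLK2+ against none of the 4. Of 36 member levels, 35 lay within 1 SD of the CPM value when given per 10000 UMIs without TMM; the exception was SLC3A2 in TOP2A+ cells, at 35 against 32.5 CPM. Gates of 1 or 2 UMIs depend on depth: 1571 of 3147 DLK2+ cells had 1 DLK2 UMI and 2310 of 5610 IGFBP5+ GJA1- cells had exactly 2 IGFBP5 UMIs.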

Other observations

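The lists around amino acid starvation, metabolism and sensing were also read in TOP2A+ against DLK2+ cells, and their genes were called in both directions. Of 18 ATF4-related genes 5 were higher and 4 lower: the serine synthesis genes PSAT1 (1.30 ± 0.13, adjusted p = 1.9e-08, edgeR) and PSPH (0.96 ± 0.17, adjusted p = 5.5e-05) were higher, and DDIT4 (-1.27 ± 0.18) and DDIT3 (-0.69 ± 0.11), both stress-response genes, were lower. Of 17 genes of glutamine, branched-chain and arginine metabolism 6 were higher and 4 lower, with GOT1 (1.15 ± 0.15) and ASL (1.14 ± 0.17) among the former. Of 25 sensing and mTORC1 genes 3 were higher and 8 lower. DEPDC5 (1.21 ± 0.35) was among the former, and SESN3 (-1.35 ± 0.25), RRAGD (-0.96 ± 0.30) and SESN2 (-0.95 ± 0.24) among the latter. The background of calls in this comparison was 46.6% of all genes, 23.4% higher and 23.2% lower, so calls in both directions were common among all genes.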
